A study of Homo sapiens with 6 samples.

Results

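The genes described here encode the SR proteins, the heterogeneous nuclear ribonucleoproteins (hnRNPs), the U2 small nuclear ribonucleoprotein (U2 snRNP) with its partner U2AF, the kinases of the SR proteins, and splicing factors of nuclear speckles. They were chosen by symbol from the deposited table, which has 21429 genes. Of 97 genes whose symbols matched, 62 are protein-coding and are the members, while 33 pseudogenes and 2 antisense genes were left out. HNRNPA1L3 was kept as protein-coding, although GENCODE 29 gives it a pseudogene-style name, HNRNPA1P48. CLK2 and SRSF8 were not analysed here. By role the members are 13 SR proteins, 26 hnRNPs including the polypyrimidine tract-binding proteins PTBP1 and PTBP2, 11 subunits of U2 snRNP and U2AF, 5 kinases and 7 speckle or RNA-binding motif (RBM) factors.

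RNA was sequenced from U251 cells, an established human glioma line, that stably carry mutant APP (K670N/M671L), the amyloid precursor protein. Cells received by electroporation either a control siRNA (siNC, 3 libraries) or an siRNA against RPL13 (siRPL13, 3 libraries), each as 2.5 µL of a 20 µM stock in 100 µL, and RPL13 is a component of the large ribosomal subunit. Both groups carry the transgene and both were given doxycycline at 1 µg/mL at 24 h, to switch it on, and were harvested at 72 h, so a comparison without the transgene is not part of the design. The labels call the 3 libraries of each group biological replicates without saying how the cultures were separated, so p-values measure the spread between libraries, which may be partly technical.

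Splicing removes introns from a pre-mRNA in the spliceosome, in which U2 snRNP pairs with the branch point and U2AF marks the end of the intron. SR proteins bind exons and mostly promote their inclusion, hnRNPs often counteract them, and the CDC-like kinases (CLK) and SR protein kinases (SRPK) phosphorylate the arginine-serine domain that controls where SR proteins go and what they bind. Many of these genes regulate their own mRNA through a conserved exon that carries an early stop codon and sends the transcript to nonsense-mediated decay, which needs translation.

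Whether the members regulated themselves in this way was not tested, and the annotation shows only which decay transcripts are known. In GENCODE 29, 44 of the 61 members tested (72.1%) have an annotated transcript of the nonsense-mediated decay class, against 43.2% of all 12383 protein-coding genes tested. Transcripts with a retained intron were also annotated more often, for 73.8% of members against 57.6%. The decay class was annotated for 13 of 13 SR proteins, 5 of 5 kinases and 6 of 7 speckle or RBM factors (85.7%). It was annotated for 15 of 25 hnRNPs (60.0%) and 5 of 11 subunits of U2 snRNP and U2AF (45.5%). The median siNC level (log2 scale) was 12.27 over the members and 9.13 over all genes tested, and its bearing on these shares was not tested. The files give a value per gene and not per exon or transcript, so the use of single exons could not be measured. From decay transcripts of SRSF3, SRSF6 and SRSF7, a stop-holding internal exon that overlaps no exon of a protein-coding transcript of the gene is shown from the start of the exon to the stop codon, which is in capitals, because SRSF6 and SRSF7 are among the members described below and SRSF3 is a close relative. They lie at chr6:36599821-36599854 (plus strand, SRSF3), chr20:43459153-43459304 (plus strand, SRSF6) and chr2:38749319-38749346 (minus strand, SRSF7) of GRCh38.
SRSF3: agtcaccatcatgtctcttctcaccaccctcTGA
SRSF6: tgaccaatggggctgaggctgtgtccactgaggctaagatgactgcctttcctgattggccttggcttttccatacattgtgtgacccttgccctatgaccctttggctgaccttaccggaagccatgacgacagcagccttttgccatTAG
SRSF7: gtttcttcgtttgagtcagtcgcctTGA

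CLK1 and CLK4 each have a 91-base exon that an annotated transcript skips. The pair is shown because CLK4 is the kinase with a call below and CLK1 its close relative. They lie at chr2:200860125-200860215 (CLK1) and chr5:178617344-178617434 (CLK4), both on the minus strand, and capitals mark the bases of CLK4 that differ from CLK1. The exons were the same at 85 of 91 bases (93.4%).
CLK1: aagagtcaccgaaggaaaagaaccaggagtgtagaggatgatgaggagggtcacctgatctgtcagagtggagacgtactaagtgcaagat
CLK4: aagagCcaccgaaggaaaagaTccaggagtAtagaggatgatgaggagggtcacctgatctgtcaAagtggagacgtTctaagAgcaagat

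HNRNPA1, which codes for one of the most abundant hnRNPs, has 2 near-identical relatives among the members. A stretch of 90 coding bases is shown for each, at chr12:54281798-54281887 for HNRNPA1, chr13:52642628-52642717 for HNRNPA1L2 and chr16:51645953-51646042 for HNRNPA1L3, all on the plus strand, with differences from HNRNPA1 in capitals. Over the coding sequence HNRNPA1L2 matched HNRNPA1 at 98.4% of 960 bases and HNRNPA1L3 at 99.3% of 825. The values of these 3 genes are therefore uncertain, since reads could be split between them.
HNRNPA1: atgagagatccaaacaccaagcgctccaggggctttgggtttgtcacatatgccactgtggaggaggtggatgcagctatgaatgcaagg
HNRNPA1L2: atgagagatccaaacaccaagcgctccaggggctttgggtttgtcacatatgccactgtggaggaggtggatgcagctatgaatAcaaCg
HNRNPA1L3: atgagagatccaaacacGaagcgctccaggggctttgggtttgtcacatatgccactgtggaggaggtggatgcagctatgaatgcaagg

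Values are regularized-log (rlog) levels on the log2 scale, which pull genes with few reads towards their mean and so understate their differences. Read depth is unknown, and no counting interval can be given. The level of RPL13 (ENSG00000167526), the siRNA target, was 14.05, 14.16 and 14.18 across the siNC libraries. It was 13.03 in siRPL13 replicate 1, 13.12 in siRPL13 replicate 2 and 14.09 in the library labelled siRPL13 replicate 3, so the target was not lowered in the last of these. Results are therefore given with all 6 libraries and with the 5 that remain without that library; these fits share libraries and are not independent. Of the astrocyte and glioma markers, 9 of 12 had a mean rlog of at least 3, among them GFAP, VIM and SOX2, while AQP4 was not analysed here and ALDH1L1 and CHI3L1 were below 3. The summed level of that list was 17.97 to 18.14 in siNC and 17.85 to 17.98 in siRPL13 libraries (log2). The lists of other cell types summed to 11.06 to 11.25 against 11.07 to 11.27 for neurons, 11.80 to 11.95 against 11.84 to 12.09 for endothelium (mostly KDR), 8.46 to 8.63 against 8.33 to 8.60 for epithelium, 5.10 to 5.15 against 4.99 to 5.31 for microglia and leukocytes, and 4.80 to 4.90 against 4.78 to 4.84 for oligodendrocytes. RBFOX3, SOX10, CD68, ITGAM, CDH1, TEK, ALDH1L1 and CHI3L1 were below 1 in every library. Yet 7 of 8 neuron, 3 of 6 endothelial and 2 of 5 epithelial markers had a mean rlog of at least 3. So did 1 of 6 oligodendrocyte and 1 of 7 microglia and leukocyte markers. The part of cell identity in the results below was not tested, and in bulk RNA fewer cells of a type and less RNA per cell cannot be told apart.

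Of the members, 61 had a mean rlog of at least 3 and were tested, within 15327 genes tested in all. Their siNC levels (rlog) ran from 3.01 to 15.01. HNRNPCL1, with a siNC mean of 1.79, was the member not tested, and HNRNPUL2-BSCL2, a read-through gene at 3.01, was just inside the limit. Per kilobase of annotated exon (rlog minus log2 of the kilobases), the highest siNC levels were those of HNRNPAB at 12.46 and SF3B5 at 12.30, followed by HNRNPK at 11.98, HNRNPA1 at 11.87, U2AF2 at 11.83, HNRNPF at 11.81 and HNRNPA2B1 at 11.80. The last 4 lay within 0.07 of each other, a gap within the siNC SD of HNRNPA1 of 0.10. Among the kinases the order per kilobase was SRPK2 at 8.63, SRPK1 at 8.20, CLK1 at 7.56, CLK3 at 6.32 and CLK4 at 4.96. Every annotated exon counts in the divisor, 20443 bases for CLK3 and 5170 for CLK1, so these orders depend on the annotation. Before division the siNC mean of CLK3 (10.68) was above that of CLK1 (9.93). The median SD among siNC libraries was 0.048 over the members and 0.067 over all genes tested.

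With all 6 libraries, 0 members rose and 0 fell at an adjusted p under 0.05 (limma), as for all genes (0.0% called). At an unadjusted p under 0.05 there were 4 members, SRSF2, SRSF6, SRSF7 and HNRNPK, against 8.32% of all genes. The smallest adjusted p among members was 0.589. Differences ran from -0.30 to 0.20, with a median of -0.018 against -0.001 over all genes. In 5 members all 3 siRPL13 libraries lay below all 3 siNC libraries (6.9% of all genes), namely SRSF6, SRSF7, SF3B6, HNRNPK and HNRNPDL, and in 2, SRSF4 and SF3B5, they lay above (6.92% of all genes).

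Without the library labelled siRPL13 replicate 3, 2 members rose (8.42% of all genes rose) and 7 fell (10.7% of all genes fell). The 9 called members are 14.8% of 61, against 19.1% of all genes. At an unadjusted p under 0.05 there were 21 members, against 33.4% of all genes. The members that fell were the SR proteins SRSF6, SRSF2 and SRSF7, the hnRNPs HNRNPF, HNRNPL and HNRNPD, and the U2 snRNP subunit SF3B3, and those that rose were the kinase CLK4 and the U2 snRNP subunit SF3A3. Differences ran from -0.37 to 0.28, so that the siRPL13 level of SRSF6 was 77.6% of siNC and that of CLK4 was 121.4%. The median difference was -0.031 and 42 of 61 were negative. Quantile scaling turned the median to 0.004 (0.003 with 6 libraries), against 0.005 (0.002) over all genes, and the calls to 4 higher and 5 lower. Median centring gave -0.022 (-0.013 with 6 libraries), against 0.007 (0.005) over all genes, with the same 9 calls. The sign of the median turned on the scaling, so no common direction of the members can be stated. Leaving out siRPL13 replicate 1 as well ended all 9 calls, and leaving out siRPL13 replicate 2 as well left 3, HNRNPF, SRSF2 and SRSF6.

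**Figure D1:**
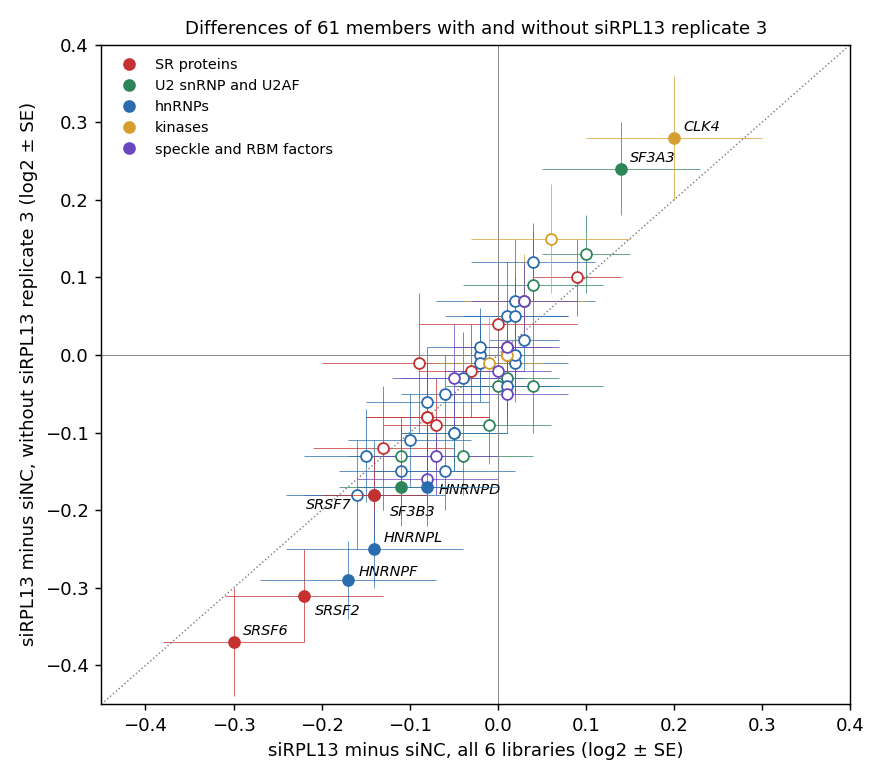
Difference between siRPL13 and siNC (log2 ± SE) of 61 members with all 6 libraries (x axis) and without the library labelled siRPL13 replicate 3 (y axis), coloured by role; filled points passed limma's adjusted threshold in the 5-library fit and are named, and the dotted line marks equal values. SRSF6 lies lowest, at -0.30 and -0.37, and CLK4 highest, at 0.20 and 0.28.

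**Figure D2:**
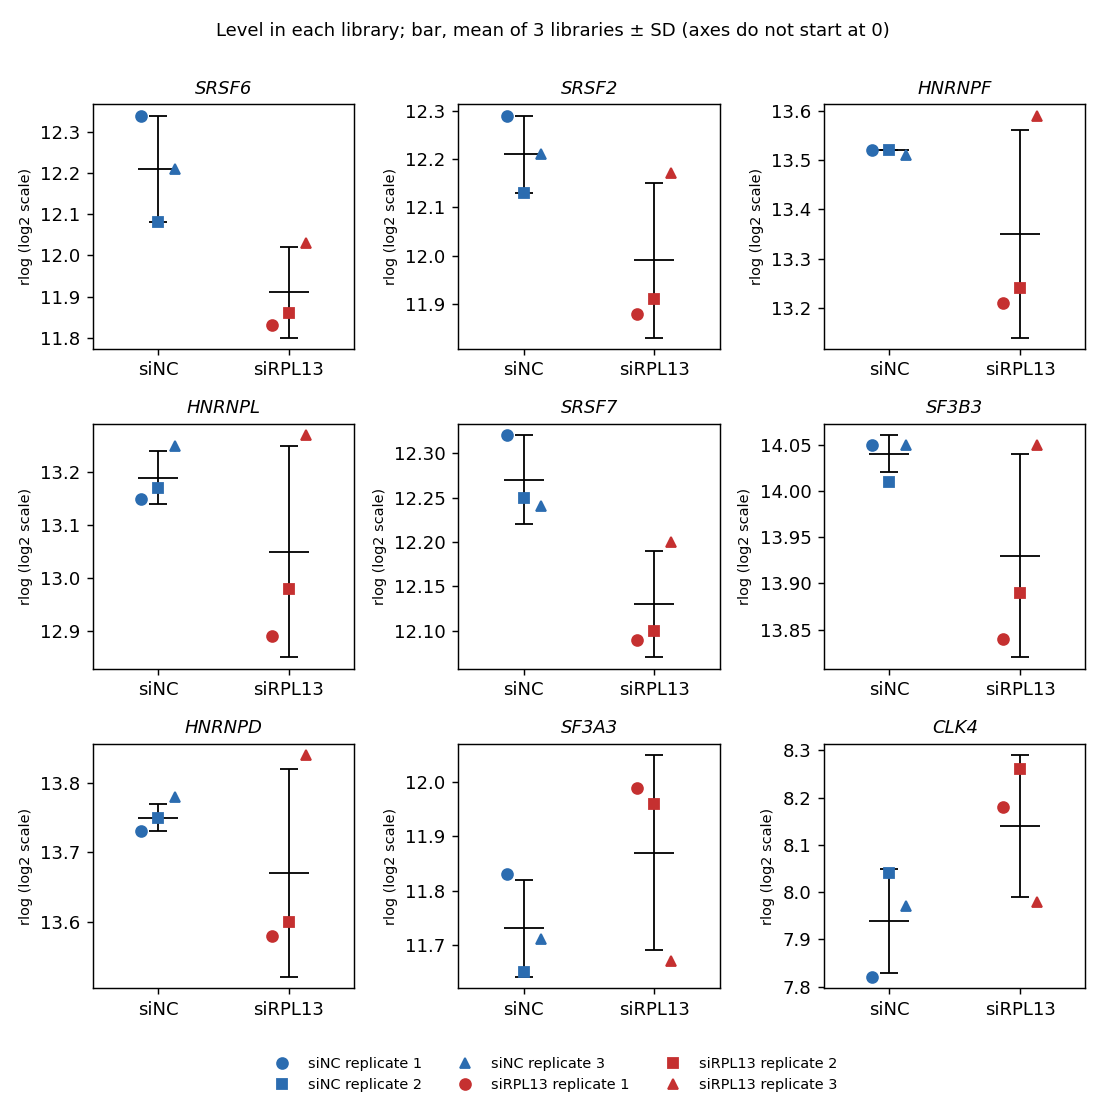
Level (rlog, log2 scale, axes not starting at 0) of the 9 members that passed the threshold without the library labelled siRPL13 replicate 3, in each library; black bars give the mean of 3 libraries ± SD. The triangle of siRPL13 lies above the siNC points in HNRNPF, HNRNPL and HNRNPD and below them in SRSF6 and SRSF7.

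The most negative differences in either fit were those of the SR proteins SRSF6 and SRSF2. With 5 libraries 3 of 13 SR proteins fell (23.1%), against 10.7% of all genes, and 0 rose. Under quantile scaling SRSF7 lost its call and SRSF4 was called higher, so this split by direction turned on the scaling. SRSF6 (ENSG00000124193, chr20:43457928-43464247, plus strand), which binds exonic enhancers, had levels of 12.34, 12.08 and 12.21 in siNC (replicates 1 to 3, the order used throughout) and of 11.83, 11.86 and 12.03 in siRPL13 libraries. Every siRPL13 library was below every siNC library. The group means were 12.21 ± 0.13 and 11.91 ± 0.11 (SD, n = 3), and the difference was -0.30 ± 0.08 (SE) with an adjusted p of 0.589 (limma). With 5 libraries SRSF6 fell by 0.37 ± 0.07, with an adjusted p of 0.00498 (limma). Its annotation holds 2 transcripts, of which 1 is the decay transcript that contains the exon printed above.

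SRSF2 (ENSG00000161547, chr17:76734115-76737374, minus strand), an SR protein of nuclear speckles, stood at 12.29, 12.13 and 12.21 in siNC and 11.88, 11.91 and 12.17 in siRPL13 libraries. Replicates 1 and 2 of siRPL13 were below all siNC libraries and the library labelled siRPL13 replicate 3 was among them. The difference was -0.22 ± 0.09 with an adjusted p of 0.589 with 6 libraries, and SRSF2 fell by 0.31 ± 0.06, with an adjusted p of 0.00421, with 5 (limma). Exons of MFSD11 and MIR636 overlap 36.7% of its exonic bases (3.3% on the same strand). The sources used here do not give the strand setting of the counting, so reads of overlapping genes cannot be told apart.

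SRSF7 (ENSG00000115875, chr2:38743599-38751494, minus strand), whose decay transcripts include the short exon stretch printed above, stood at 12.32, 12.25 and 12.24 in siNC and 12.09, 12.10 and 12.20 in siRPL13 libraries. The groups did not overlap. The difference was -0.14 ± 0.06 (adjusted p = 0.589, limma), and with 5 libraries SRSF7 fell by 0.18 ± 0.05 (adjusted p = 0.031, limma). The 5-library adjusted p of SRSF7 was 0.0632 under quantile scaling and 0.0568 without a mean-variance trend (limma).

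The other 10 SR proteins did not pass in either fit at the main settings, though SRSF4 passed with 5 libraries under quantile scaling. SRSF4 differed by 0.09 with 6 libraries and 0.10 with 5, while SRSF3, whose stop-holding exon is printed above, differed by -0.08 in both. SRSF1, the prototype of the family, differed by -0.07 and -0.09. SRSF5 differed by -0.13 and -0.12, SRSF10 by -0.09 and -0.01, and TRA2B by -0.08 in both. The values of SRSF9, SRSF11, SRSF12 and TRA2A lay between -0.03 and 0.04. SRSF12 had a siNC mean of 3.6, near the limit of 3, where rlog values can understate a difference. In SRSF1, 60.7% of the exonic bases are shared with overlapping genes (56.6% on the same strand), and in SRSF9, 46.2% (0.0% on the same strand).

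The siNC libraries also differed among themselves in the SR proteins. The median over the 13 genes, relative to the siNC mean of each gene, was 0.091 in siNC replicate 1, -0.095 in siNC replicate 2 and 0.001 in siNC replicate 3. It was -0.067, -0.076 and -0.070 in siRPL13 replicates 1 to 3, all above siNC replicate 2. Replicate 1 exceeded replicate 2 of siNC in 10 of 13 SR proteins (76.9%) and 20 of 25 hnRNPs (80.0%), against 48.9% of all genes. What separates those siNC libraries was not tested.

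**Figure D3:**
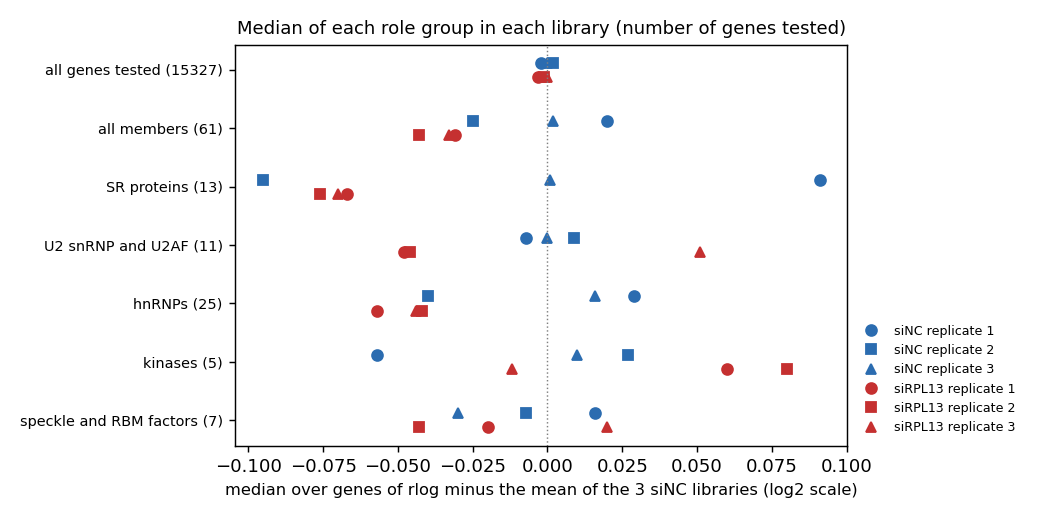
Median over the genes of each role, and over all genes tested, of rlog minus the siNC mean (log2 scale), for each library; the number of genes tested is in brackets. For the SR proteins siNC replicate 1 stands at 0.091 and siNC replicate 2 at -0.095, with the siRPL13 libraries between -0.076 and -0.067.

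**Figure D4:**
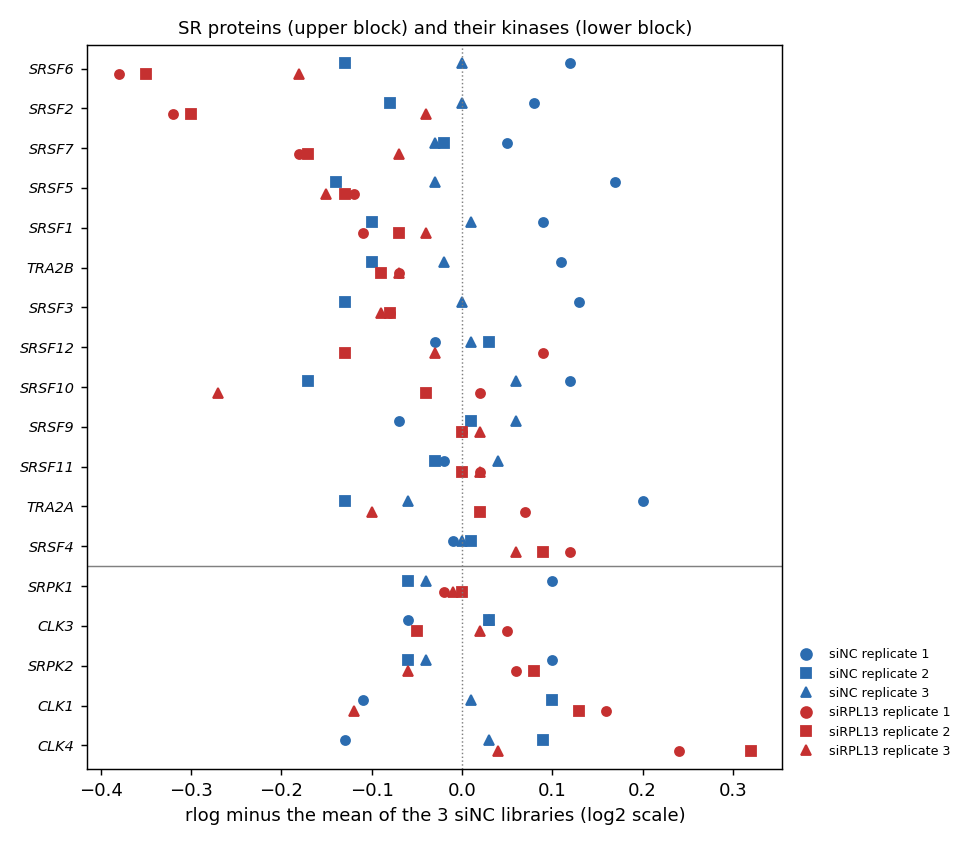
Level of each SR protein and kinase gene in each library, as rlog minus the mean of the 3 siNC libraries (log2 scale); blue marks are siNC and red marks siRPL13, with circles, squares and triangles for replicates 1 to 3. SRSF6 stands at -0.38, -0.35 and -0.18 in the siRPL13 libraries, while CLK4 stands at 0.24, 0.32 and 0.04.

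Of the 5 kinases that act on SR proteins, 1 rose with 5 libraries (20.0%) against 8.42% of all genes, and 0 fell. CLK4 (ENSG00000113240, chr5:178602664-178630615, minus strand) stood at 7.82, 8.04 and 7.97 in siNC and 8.18, 8.26 and 7.98 in siRPL13 libraries. Replicates 1 and 2 of siRPL13 were above all siNC libraries and the library labelled siRPL13 replicate 3 was within their range. The difference was 0.20 ± 0.10 (adjusted p = 0.591, limma), and CLK4 rose by 0.28 ± 0.08 (adjusted p = 0.0391, limma) with 5 libraries. This call was also lost without siNC replicate 1 and without siNC replicate 3.

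CLK1 (ENSG00000013441, chr2:200853009-200864744, minus strand), its close relative, stood at 9.82, 10.03 and 9.94 in siNC and 10.09, 10.06 and 9.81 in siRPL13 libraries. Replicates 1 and 2 of siRPL13 lay just above siNC, and the library labelled siRPL13 replicate 3 just below. The difference was 0.06 ± 0.09 (adjusted p = 0.845) with 6 libraries and 0.15 ± 0.07 (adjusted p = 0.160) with 5 (limma). CLK3 stood at 10.62, 10.71 and 10.71 against 10.73, 10.62 and 10.70. The cytoplasmic kinase SRPK1 stood at 11.05, 10.89 and 10.91 against 10.93, 10.95 and 10.94, and SRPK2 at 11.40, 11.24 and 11.26 against 11.36, 11.38 and 11.24. In these 3 the groups overlapped, with differences of at most 0.07 and a 5-library adjusted p of at least 0.442 (limma).

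Of 25 hnRNPs tested, 3 fell with 5 libraries (12%), against 10.7% of all genes, and 0 rose, against 8.42%. HNRNPF (ENSG00000169813, chr10:43385617-43409166, minus strand), which binds runs of G, stood at 13.52, 13.52 and 13.51 in siNC and 13.21, 13.24 and 13.59 in siRPL13 libraries. HNRNPL (ENSG00000104824, chr19:38836388-38852347, minus strand), which binds CA-rich RNA, stood at 13.15, 13.17 and 13.25 against 12.89, 12.98 and 13.27. HNRNPD (ENSG00000138668, chr4:82352498-82374503, minus strand), which binds AU-rich elements and influences mRNA decay, stood at 13.73, 13.75 and 13.78 against 13.58, 13.60 and 13.84. In all 3 genes siRPL13 replicates 1 and 2 were below, and the library labelled siRPL13 replicate 3 above, every siNC library.

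With 5 libraries HNRNPF fell by 0.29 ± 0.05 (adjusted p = 0.00256), HNRNPL by 0.25 ± 0.05 (adjusted p = 0.00884) and HNRNPD by 0.17 ± 0.05 (adjusted p = 0.0329), all by limma. With 6 libraries the differences were -0.17 ± 0.10 (adjusted p = 0.614), -0.14 ± 0.10 (adjusted p = 0.647) and -0.08 ± 0.08 (adjusted p = 0.739). The HNRNPD call was lost under quantile scaling, where its difference was -0.10 (adjusted p = 0.141, limma), without a mean-variance trend (0.0584), with the replicate number as a block (0.128) and without siNC replicate 3.

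HNRNPK, which binds C-rich RNA, stood at 14.43, 14.25 and 14.33 in siNC and 14.20, 14.21 and 14.16 in siRPL13 libraries. All 3 siRPL13 libraries were below siNC. The difference was -0.15 ± 0.07 (adjusted p = 0.589) with 6 libraries and -0.13 ± 0.06 (adjusted p = 0.137) with 5 (limma). Under library weights HNRNPK passed with 6 libraries, at -0.12 (adjusted p = 0.0359, limma). HNRNPH2, a relative of HNRNPF, stood at 11.33, 11.07 and 11.23 against 10.99, 11.08 and 11.09, where siRPL13 replicate 2 and the library labelled siRPL13 replicate 3 lay above siNC replicate 2, and it differed by -0.16 (adjusted p = 0.589) and -0.18 (adjusted p = 0.109, limma). HNRNPH2 passed with 5 libraries under library weights (adjusted p = 0.0385, limma) and without siNC replicate 2. The other 20 hnRNPs tested did not pass with 6 or with 5 libraries at the main settings. Among them were HNRNPA1 (-0.10 and -0.11), HNRNPA2B1 (-0.11 and -0.15), HNRNPC (-0.02 and 0.01), HNRNPU (0.02 and 0.05), PTBP1 (0.01 and -0.04) and PTBP2 (-0.08 and -0.06). With 5 libraries HNRNPA2B1 passed under quantile scaling, under library weights and without siNC replicate 2. HNRNPA1L3 passed under library weights and without siNC replicate 2, HNRNPAB under library weights and without siNC replicate 1, and HNRNPH1 without siNC replicate 1.

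Of 11 subunits of U2 snRNP and U2AF, 1 rose and 1 fell with 5 libraries (9.09% each way), against 8.42% and 10.7% of all genes. SF3B3 (ENSG00000189091, chr16:70523788-70577670, plus strand), a scaffold of the SF3b complex, stood at 14.05, 14.01 and 14.05 in siNC and 13.84, 13.89 and 14.05 in siRPL13 libraries. SF3A3 (ENSG00000183431, chr1:37956975-37990921, minus strand), a subunit of the SF3a complex, stood at 11.83, 11.65 and 11.71 against 11.99, 11.96 and 11.67. In both genes siRPL13 replicates 1 and 2 were outside the siNC range, below for SF3B3 and above for SF3A3, and the library labelled siRPL13 replicate 3 was within it.

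With 5 libraries SF3B3 fell by 0.17 ± 0.05 (adjusted p = 0.032, limma) and SF3A3 rose by 0.24 ± 0.06 (adjusted p = 0.0167, limma). With 6 libraries the differences were -0.11 ± 0.07 (adjusted p = 0.637) and 0.14 ± 0.09 (adjusted p = 0.645). The SF3B3 call was lost under quantile scaling (adjusted p = 0.0739, limma), without a mean-variance trend (0.0556), with the replicate number as a block (0.0989) and without siNC replicate 3. SF3B5, a small SF3b subunit, stood at 11.77, 11.80 and 11.76 in siNC and 11.93, 11.88 and 11.82 in siRPL13 libraries, with no overlap. SF3B6, which contacts the branch point, was the reverse, at 11.62, 11.58 and 11.65 against 11.45, 11.53 and 11.56. Neither passed at the main settings. Their differences were 0.10 (adjusted p = 0.605) and -0.11 (0.603) with 6 libraries and 0.13 (0.0888) and -0.13 (0.110) with 5 (limma). SF3B5 passed under library weights with 6 libraries (adjusted p = 0.0353) and with 5 (0.036), and under quantile scaling with 5 (0.0414, limma). SF3B4, at 11.82, 11.85 and 11.81 against 11.68, 11.71 and 11.96, differed by -0.04 (adjusted p = 0.869) and -0.13 (0.0848). With 5 libraries and library weights SF3B6 (adjusted p = 0.0408) and SF3B4 (0.041) also passed (limma).

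SF3B1, the largest SF3b subunit, differed by 0.04 with 6 libraries and 0.09 with 5, and U2AF1 and U2AF2 by -0.05 and 0.01 with 6 and by -0.10 and -0.03 with 5. U2AF1 has a near-identical copy, U2AF1L5, on the same chromosome of GRCh38, so its value is uncertain. The library labelled siRPL13 replicate 3 lay above every siNC library in 7 of the 11 genes of this group (63.6%) and in 1 of 13 SR proteins (7.69%), against 29.4% of all genes. Across all 61 members it lay above siNC in 20 (32.8%), within in 24 (39.3%, against 42.7% of all genes) and below in 17 (27.9%, against 27.9%). Replicates 1 and 2 of siRPL13 were both below siNC in 21 members (26.6% of all genes) and both above in 8 (24.7% of all genes).

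**Figure D5:**
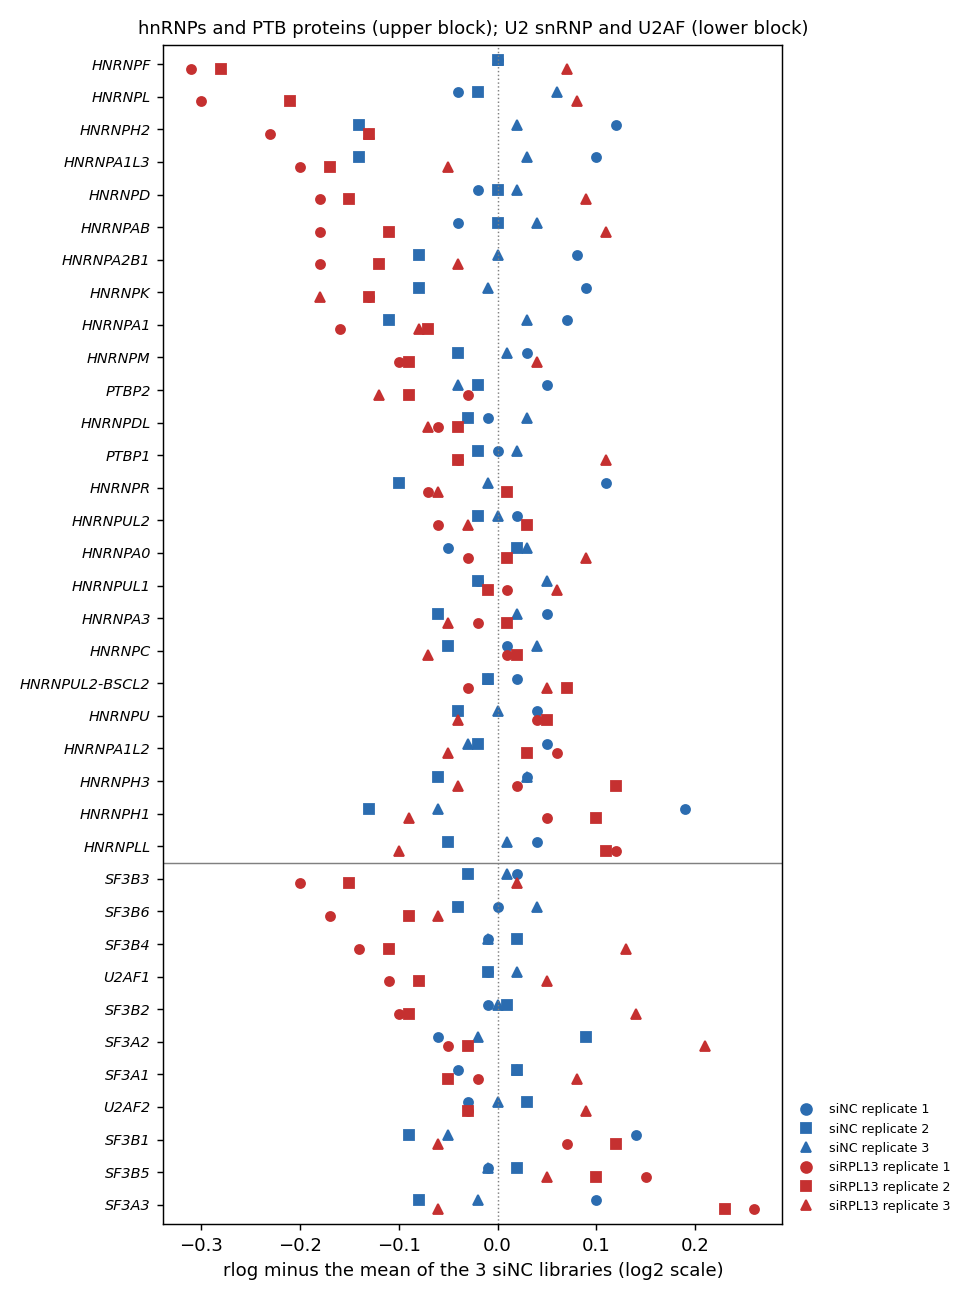
Level of each hnRNP gene (upper block) and each U2 snRNP or U2AF gene (lower block) in each library, as rlog minus the mean of the 3 siNC libraries (log2 scale); blue marks are siNC and red marks siRPL13, with circles, squares and triangles for replicates 1 to 3. For HNRNPF the siRPL13 circle and square lie at -0.31 and -0.28 and the triangle at 0.07.

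Of the 7 speckle and RBM factors, 0 passed with 5 libraries, against 19.1% of all genes. At an unadjusted p under 0.05 (limma) there were 2, against 33.4% of all genes. RBM10, which represses exon inclusion, stood at 10.92, 10.90 and 10.90 in siNC and 10.70, 10.78 and 11.00 in siRPL13 libraries, with a difference of -0.08 ± 0.08 (adjusted p = 0.752) with 6 libraries and -0.16 ± 0.05 (adjusted p = 0.0503) with 5 (limma). RBM10 passed with 5 libraries under a minimum mean rlog of 5 (adjusted p = 0.0464), with library weights (0.0236) and without siNC replicate 1, so its side of the threshold turns on these settings. SRRM1, a splicing coactivator, stood at 12.27, 12.29 and 12.24 against 12.10, 12.18 and 12.32, a difference of -0.07 with 6 libraries and -0.13 with 5. In both genes siRPL13 replicates 1 and 2 were below and the library labelled siRPL13 replicate 3 above siNC.

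RBM39, a U2AF-related factor, stood at 12.23, 12.18 and 12.18 in siNC and 12.28, 12.25 and 12.16 in siRPL13 libraries. RBM5 stood at 10.89, 10.71 and 10.69 against 10.79, 10.68 and 10.66. Exons of other genes overlap 21.2% of its exonic bases (4.4% on the same strand). The differences were 0.03 and 0.07 for RBM39 and -0.05 and -0.03 for RBM5, with 6 and with 5 libraries. The groups overlapped in RBM5, and in RBM39 the library labelled siRPL13 replicate 3 fell outside the other siRPL13 libraries, below siNC. SON and SRRM2, large speckle proteins, differed by 0.01 each with 6 libraries and by 0.01 and -0.05 with 5.

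Other splicing genes were counted from 5 lists, in all of which 0 genes passed with 6 libraries. Some genes of these lists were not analysed here, among them RBM8A, LSM2, PRPF31, DDX39B, DHX16, TAF15 and RBFOX1. With 5 libraries, 4 of 34 core snRNP proteins were called, 1 rising and 3 falling (11.8%). SNRNP70 and SNRPA, proteins of U1 snRNP, fell by 0.28 each (adjusted p = 0.00365 and 0.00711), PPIH of the tri-snRNP fell by 0.19 (adjusted p = 0.0427) and PRPF3, also of the tri-snRNP, rose by 0.24 (adjusted p = 0.0121), all by limma. With 6 libraries these differences were -0.14, -0.15, -0.11 and 0.17. Of 49 helicases and step factors 5 rose and 4 fell (18.4%). The helicase DDX41 rose by 0.24, CWC27 by 0.30 and PLRG1 of the PRP19 complex by 0.26, and the helicase DDX39A fell by 0.23, THRAP3 by 0.22 and the branch point-binding SF1 by 0.21. With 6 libraries the differences were 0.17, 0.17 and 0.16 for DDX41, CWC27 and PLRG1, and -0.13, -0.13 and -0.11 for DDX39A, THRAP3 and SF1.

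Of the 5 exon junction complex genes tested, the core helicase EIF4A3 fell by 0.26 (adjusted p = 0.00504, limma), and MAGOH differed by 0.06 (adjusted p = 0.466), against -0.14 and 0.05 with 6 libraries. Of 54 other regulators of alternative splicing 1 rose and 7 fell (14.8%). PCBP2 and PCBP1, which bind C-rich RNA as HNRNPK does, fell by 0.34 (adjusted p = 0.00131) and 0.25 (adjusted p = 0.00617), RALY fell by 0.24 and MBNL1 rose by 0.29 (adjusted p = 0.0064), by limma. With 6 libraries these differed by -0.27, -0.12, -0.13 and 0.20. Of 19 further kinases, phosphatases and importers of SR proteins 2 rose and 0 fell. These were CDK13 (0.22) and CDK12 (0.15), which phosphorylate the tail of RNA polymerase II, and PPP1CA, a phosphatase subunit, differed by -0.09 (adjusted p = 0.200, limma). With 6 libraries CDK13, CDK12 and PPP1CA differed by 0.16, 0.13 and -0.06. The share called in each list ran from 10.5% to 20.0%, against 19.1% of all genes. The median 5-library difference was -0.026 for core snRNP proteins, 0.046 for helicases and step factors, -0.061 for the exon junction complex, -0.032 for other regulators and 0.040 for the kinase list, against -0.001 over all genes. With 6 libraries these medians were -0.027, 0.022, -0.017, -0.023 and 0.037, against -0.001, so the library labelled siRPL13 replicate 3 moved that of the helicases and that of the exon junction complex by over 1.5 times.

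The genes most alike to a member over the 6 libraries, by Pearson r, are given as a description of 6 values that share library effects. For CLK1 they were DIABLO (r = 0.9973), NFXL1 (0.9922) and ZBTB10 (0.9906). For SRSF1 they were BUB3 (0.9941), CENPN (0.9897) and KDM4A-AS1 (0.986), and for HNRNPA1, TXNDC17 (0.9952), ALG6 (0.9934) and FHIP1A (0.9926). Over all genes tested, r exceeded 0.95 for 44, 68 and 66 genes.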

How the data were processed

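The table the authors deposited, named rlog, holds regularized-log values in log2 units for each gene in each library. Tools named in the submitters' processing notes are HTSeq 0.6.1p1, DESeq2, TopHat and Trimmomatic 0.33, with the build GRCh38.p7 and no roles. The values are not counts, so no count model was used, and depth is not known.

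Symbols and positions came from a gene name table (20499 of 21429 identifiers) and GENCODE 29 (20608), and 821 identifiers were in neither. Sequences were read from GENCODE 29 transcripts. Tests ran in limma 3.58.1 under R 4.3.3 on the 15327 genes whose mean rlog reached 3 (lmFit and eBayes, trend on, two-sided, Benjamini-Hochberg over these genes, threshold 0.05), with all 6 libraries and without the library labelled siRPL13 replicate 3. Replicates and groups came from the labels. The procedure was tested on simulated data.

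The members, lists and tests were chosen with earlier results of these data known. Named with every library's value were, in each role group, the 3 members with the smallest p in each fit, and all kinases analysed. Other members were named by their differences. Also named were, in each list, up to 3 genes in each direction with the smallest 5-library p among those past the threshold, or 1 where none passed, and the 3 genes most alike to CLK1, SRSF1 and HNRNPA1. Alternatives were: leaving out each library; the replicate number as a block; library weights; a robust or no trend in eBayes; centring on the median or quantile scaling; and a minimum of 5 or none. Figures were drawn with matplotlib 3.10.9.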

Additional observations from a re-analysis of the deposited data

How the results depend on the processing

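With all 6 libraries, 0 genes passed under every alternative except library weights and leaving out the library labelled siRPL13 replicate 3. Library weights gave that library 0.163 and siRPL13 replicate 2 7.19, and called 2601 genes higher and 2708 lower, 4 members higher and 11 lower, 4 and 6 core snRNP proteins, 11 and 5 helicases and step factors, 1 exon junction gene lower, 6 and 8 other regulators, and 5 and 1 genes of the kinase list. Leaving out each library in turn gave 0 to 1291 genes higher and 0 to 1642 lower, 0 to 2 members higher and 0 to 7 lower, 0 to 1 and 0 to 3 core snRNP proteins, 0 to 5 and 0 to 4 helicases, 0 to 0 and 0 to 1 exon junction genes, 0 to 1 and 0 to 7 other regulators, and 0 to 2 and 0 to 0 of the kinase list. The cause was not tested.

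With 5 libraries, 2 members rose and 7 fell. Quantile scaling gave 4 members higher, 3 core snRNP proteins higher, and 3 other regulators higher and 4 lower. Median centring gave 2 core snRNP proteins higher. Without a trend 4 members were lower, 3 helicases higher and 1 of the kinase list higher. With no filter 3 helicases and 1 of the kinase list were higher. Library weights gave 2007 genes higher, 14 members lower, 3 core snRNP proteins higher, 4 other regulators higher and 5 of the kinase list higher. Leaving out each library gave 102 to 1734 genes higher and 141 to 2014 lower, 0 to 3 members higher and 0 to 10 lower, 0 to 1 and 0 to 3 core snRNP proteins, 0 to 7 and 0 to 5 helicases, 0 to 0 and 0 to 1 exon junction genes, 0 to 5 and 1 to 9 other regulators, and 0 to 3 and 0 to 0 of the kinase list. Where 1 siRPL13 library is left, it is assumed to vary like the siNC libraries.

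With the replicate number as a block, 0 members passed with 6 libraries and 7 with 5, where 1326 genes rose and 1717 fell and 1 of the kinase list rose; HNRNPD (adjusted p = 0.128, limma) and SF3B3 (0.0989) lost their calls. After the group mean of each gene was subtracted, same-numbered libraries correlated at 0.084, -0.428 and -0.328 (Pearson r). Differently numbered ones ran from -0.38 to 0.454. Deviations within a group of 3 sum to 0 for each gene, so these values cannot show whether the numbers pair cultures.

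Among the named members without a call, the sign turned in 18 cases. Leaving out each library gave, with 6 libraries, -0.02 to 0.04 for CLK3, -0.10 to 0.01 for RBM5, -0.13 to 0.01 for SF3B4, -0.04 to 0.04 for SRPK1 and -0.00 to 0.08 for SRPK2, and with 5 libraries, -0.05 to 0.05 for CLK3, -0.09 to 0.04 for RBM5 and -0.04 to 0.04 for SRPK1. Library weights gave -0.05 for CLK3 and 0.02 for SRPK1 with 6 libraries, and -0.01 for CLK3, 0.00 for RBM5 and 0.01 for SRPK1 with 5, where quantile scaling gave 0.00 for SRPK1. HNRNPF, SRSF2 and SRSF6 kept their 5-library calls in all of the 13 alternatives except without siRPL13 replicate 1. Depth is unknown, so no limit on low genes can be stated.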
